A study of Schizosaccharomyces pombe with 24 samples.

Results

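Fission yeast strains carrying a single amino acid change in Msi2 (msi2-G252E) or in Pfs2 (pfs2-V180F) were compared directly, gene by gene, by polyA+ RNA-seq. Both strains are h- haploids, and in both, by their labels, the asp1 locus holds the wild-type gene with a kanMX marker (asp1-WT::kanMX), so the contrast is matched for mating type and marker. The comparison uses 6 of the 24 libraries in the series, 3 labelled biological replicates of each mutant, chosen by their column names in the count table. The cells were grown at 30 °C in rich medium (YES) and taken in log phase. The WT strain of the series, grown in the same way, also has 3 libraries and is given for orientation. It lacks the marker, so a difference from WT is not separated from the marker. The labels do not say whether the replicates of a strain are cultures of 1 isolate or of several. The p-values rest on the spread between labelled replicates, estimated over all 24 libraries in 8 groups.

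Msi2 is an RNA-binding subunit of a cleavage factor and Pfs2 is a WD-repeat subunit of the cleavage and polyadenylation factor. These complexes cut the nascent transcript at its 3' end, add the poly(A) tail and prepare RNA polymerase II for termination. In fission yeast, the phosphate acquisition genes pho1, pho84 and tgp1 are each repressed by transcription of a long non-coding RNA (lncRNA) from upstream across their promoters. Where that lncRNA ends therefore matters for the mRNA, and the series' title concerns mutations that suppress lncRNA termination that comes too early. Asp1 is the kinase and phosphatase that makes and removes inositol pyrophosphates, which act on this termination. The contrast asks how the transcriptomes of cells with a change in a different subunit of the same machinery differ from each other.

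The mutant libraries held 21.4 to 29.3 M counts and the WT libraries 25.3 to 28.1 M. Levels below are CPM, counts scaled by library size and TMM factor. Differences are log2 fold changes of msi2-G252E minus pfs2-V180F, tested by edgeR's quasi-likelihood test with Benjamini-Hochberg adjustment over 6287 genes. Their standard errors were derived from the fold change and the F statistic of that test. A gene is called at an adjusted p under 0.05. The labels were checked against the counts. SPNCRNA.1144, annotated antisense to asp1, was at 33, 31.3 and 30.9 CPM in msi2-G252E and 30.2, 32.8 and 34.1 CPM in pfs2-V180F, against 0.875, 0.557 and 0.937 in WT. Both marked strains were far above WT and overlapped with each other (-0.03 ± 0.09 between the mutants, adjusted p = 0.78). The asp1 mRNA itself was still higher in msi2-G252E, at 191, 189 and 192 CPM against 138, 154 and 155 (0.36 ± 0.05, adjusted p = 2.4e-06). The mutated genes were not called between the strains, with msi2 at 0.07 ± 0.05 (adjusted p = 0.2) and pfs2 at 0.08 ± 0.05 (adjusted p = 0.14; called at 0.12 without pfs2-V180F replicate 2). With total-count scaling both were called, msi2 at 0.20 (adjusted p = 0.0029) and pfs2 at 0.21 (adjusted p = 0.00069). Gene counts do not show a point mutation. For the mating type, the 5 M-cell genes made up 0.00787 ± 0.00017% of msi2-G252E counts and 0.00772 ± 0.00037% of pfs2-V180F counts (SD, n = 3), and 1 of the 5 was called, the M-factor gene mfm2 at -0.45 ± 0.11. The 4 P-cell genes made up 0.00731 ± 0.00018% and 0.00645 ± 0.00012%. Of these, map2 (0.28, adjusted p = 0.039) and map3 (0.24, adjusted p = 0.022) were called higher in msi2-G252E. The map2 and map3 calls were each lost without msi2-G252E replicate 3 (map2 0.28, map3 0.23), pfs2-V180F replicate 1 (0.29 and 0.21) or pfs2-V180F replicate 3 (0.23 and 0.23), and the map2 call also without msi2-G252E replicate 1 (0.26). These shares alone do not settle the mating type. In cft1-L249Q, labelled h+, mfm2 averaged 1.85 CPM, against 17.7 in msi2-G252E, 24.3 in pfs2-V180F and 44.5 in WT. There map2 (6.37) and map3 (12.7) were near their levels in the h- strains.

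The transcriptomes of the mutants differed widely, mostly by small amounts. Of 6287 genes tested, 3464 were called (55.1%), 1727 higher in msi2-G252E (27.5%) and 1737 lower (27.6%), and the median absolute difference of the called genes was 0.285 on the log2 scale. Differences of at least 2-fold were fewer, 243 genes (3.87%), with 158 genes higher in msi2-G252E (2.51%) and 85 lower (1.35%). Of the higher genes 67 were protein-coding and 79 were lncRNA genes, and of the lower genes 38 and 37. The 3 libraries of each mutant did not overlap in 63.4% of all genes tested, and in 239 of the 2-fold genes (3.8% of all). The split into higher and lower rests on the scaling. With plain total counts in place of TMM, added after the TMM factors of the strains were seen to differ, the median of all genes moved by 0.13 and the calls became 2859 higher and 881 lower. In shares of all genes, 45.5% were then called higher and 14% lower. The counts of each list are therefore given under both scalings, to be read against 27.5% higher and 27.6% lower of all genes with TMM and against these shares with total counts.

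**Figure D1:**
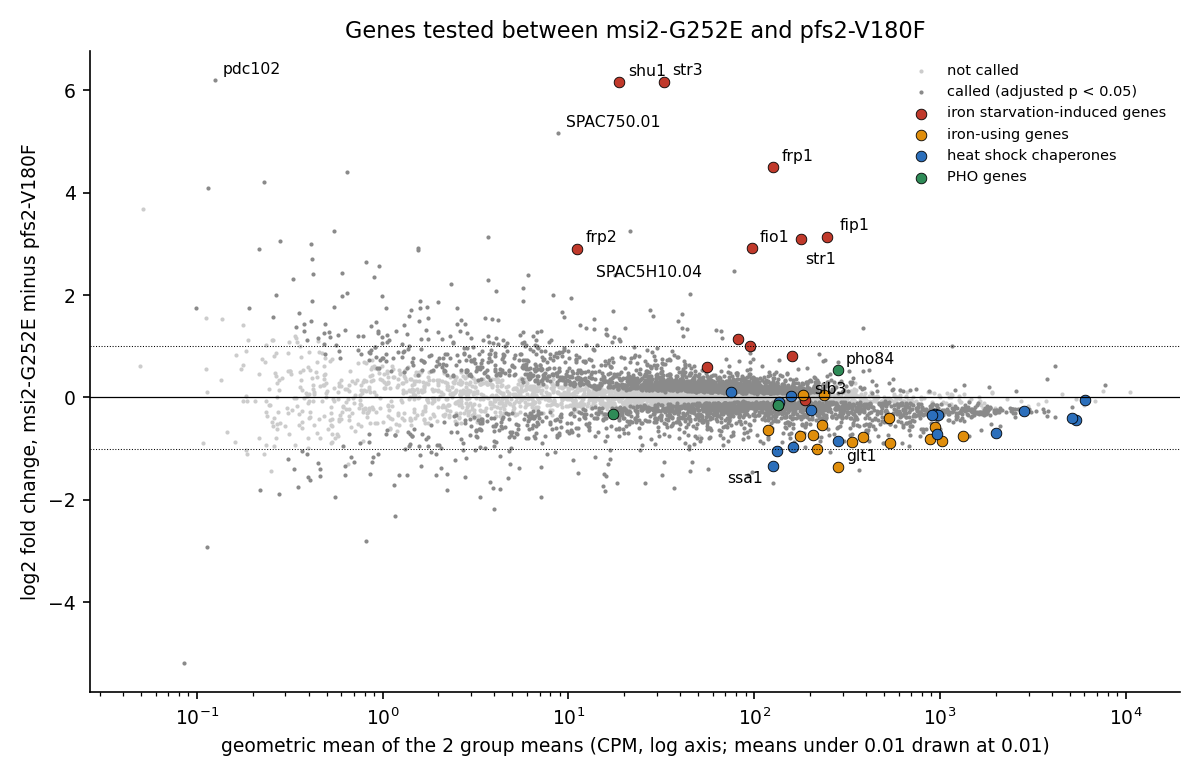
Log2 fold change between the mutants (y axis) against the geometric mean of the group means in CPM (x axis, log scale) for 6287 genes. Most genes lie between the dotted 2-fold lines, and 9 of the 12 iron starvation-induced genes lie above the upper line, str3 and shu1 highest at 6.17 and 6.16.

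Of the gene lists examined, that of iron starvation-induced genes had the largest median difference. Fission yeast takes up iron by reducing and transporting it at the cell surface, by importing siderophores (secreted or foreign iron chelators) and by taking up heme. When iron is plentiful the GATA-type repressor Fep1 keeps these uptake genes off. When iron is scarce the repressor subunit Php4 joins the CCAAT-binding complex of Php2, Php3 and Php5 and turns down genes whose products consume iron, and Fep1 and Php4 are known to repress each other's genes.

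Of 12 iron starvation-induced genes, 11 were called higher in msi2-G252E (91.7%, against 27.5% of all genes), none lower, and 9 were at least 2-fold higher. The list median was 2.91, against 0.008 for all genes, and with total-count scaling 11 were again called higher, at a median of 3.04. Together the 12 genes made up 0.354 ± 0.021% of counts in msi2-G252E, 0.0683 ± 0.0031% in pfs2-V180F and 0.05 ± 0.0027% in WT (SD, n = 3). Against WT, 11 of the 12 were called higher in msi2-G252E (29.3% of all genes were) and 8 in pfs2-V180F (24.1% of all genes). The list is therefore not at its WT level in pfs2-V180F either, with a median of 0.81 there and 3.74 in msi2-G252E.

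Among the transporters that import iron complexes, str3, which encodes a member of the siderophore transporter family, was at 323, 282 and 237 CPM in the libraries of msi2-G252E, 3.12, 5.08 and 3.23 in pfs2-V180F and 0.292, 0.597 and 1.76 in WT. All msi2-G252E libraries were far above all others, and the difference between the mutants was 6.17 ± 0.27 (adjusted p = 2.3e-14), or 72-fold. The siderophore transporter gene str1 stood at 551, 516 and 486 CPM against 74.6, 63.2 and 45.7, with 20.7, 18.9 and 44.6 in WT. Here the lowest pfs2-V180F library was beside the highest WT library, while msi2-G252E was again apart (3.09 ± 0.29, adjusted p = 8.8e-09). The siderophore transporter gene str2 differed less, at 71.6, 67.1 and 65.9 against 43.7, 44.6 and 47 CPM (0.60 ± 0.05, adjusted p = 2.3e-10), and in pfs2-V180F it was not called against WT (0.06, adjusted p = 0.3). The gene for the cell-surface heme uptake protein Shu1 was at 170.4, 167 and 144 CPM in msi2-G252E, 1.92, 2.47 and 2.25 in pfs2-V180F, against 0.583, 0.597 and 0.6 in WT. The mutants did not overlap with each other or with WT, and shu1 differed between them by 6.16 ± 0.11 (adjusted p = 5.5e-22). The vacuolar transporter gene abc3 was at 143, 136 and 127 against 75.3, 66.4 and 60.3 CPM, apart by 1.01 ± 0.08 (adjusted p = 4.3e-10).

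The reductive uptake route showed the same order of strains. The ferric reductase gene frp1 was at 637, 617 and 552 CPM in msi2-G252E, 25.1, 27.5 and 26.9 in pfs2-V180F, against 6.83, 12.3 and 14 in WT, a difference between the mutants of 4.50 ± 0.19 (adjusted p = 1.6e-14). A further ferric reductase gene, frp2, was at 31.2, 31.5 and 28.9 CPM against 4.46, 3.2 and 4.65, with 2.96, 3.02 and 3.41 in WT. For frp2 the difference between the mutants was 2.91 ± 0.13 (adjusted p = 3.6e-14), while pfs2-V180F was not called against WT (0.37 ± 0.16, adjusted p = 0.063). The multicopper oxidase gene fio1 and the iron permease gene fip1, whose products form one transport complex, moved nearly alike. fio1 was at 267, 273 and 259.6 CPM against 43.9, 30.4 and 32 (2.92 ± 0.20, adjusted p = 3.6e-11), and fip1 at 729.9, 743 and 712 against 95, 74.6 and 79 (3.14 ± 0.19, adjusted p = 6.7e-12). In WT they were at 7.96, 7.24 and 11.9 and at 22.3, 21.6 and 32.7 CPM, so that for both genes the pfs2-V180F libraries lay between WT and msi2-G252E without overlap.

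The genes for making the cell's own siderophore, ferrichrome, differed less than str1, str3, shu1 and the reductive uptake genes. However, sib2 and sib1 differed more than str2 (0.60), and sib2 also more than abc3 (1.01). sib2, for the ornithine monooxygenase of the first step, was at 122, 128 and 117 CPM against 51.4, 59 and 55.1 (1.15 ± 0.06, adjusted p = 9e-13). sib1, for the ferrichrome synthetase, was at 218, 214 and 201 CPM against 124, 119.8 and 118 (0.81 ± 0.06, adjusted p = 2.6e-10) and in pfs2-V180F was not called against WT (0.03 ± 0.06, adjusted p = 0.67). The remaining gene, sib3, also annotated to siderophore biosynthesis, was the one member of the list that was not called, at 189, 181 and 185 CPM against 197, 191 and 191 (-0.06 ± 0.04, adjusted p = 0.18).

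**Figure D2:**
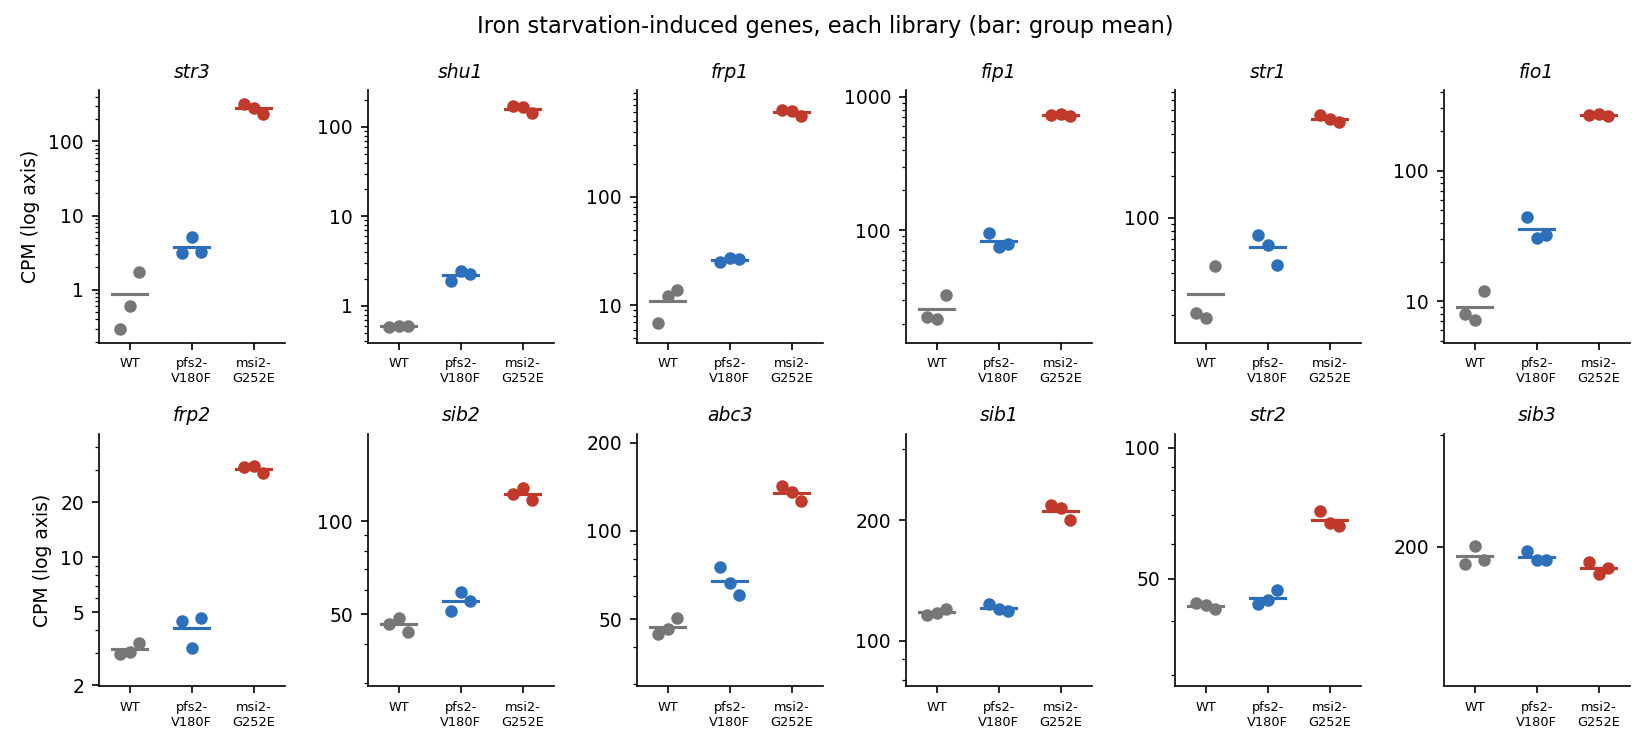
CPM of the 12 iron starvation-induced genes (log axes, each panel on its own range) in each library of WT, pfs2-V180F and msi2-G252E; points are libraries and bars are group means. The msi2-G252E libraries lie above the pfs2-V180F libraries in 11 panels, by a log2 fold change of 0.60 in str2 to 6.17 in str3, and sib3 at -0.06 was not called.

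Of the 7 regulators of the iron response, 2 were called higher (28.6%, against 27.5% of all genes) and 1 lower (14.3%, against 27.6%). php4 was at 102, 103 and 98.2 CPM in msi2-G252E, 44.7, 47.6 and 42.7 in pfs2-V180F, against 38.1, 35.6 and 40.6 in WT (1.16 ± 0.06 between the mutants, adjusted p = 2.2e-13). fep1 went the other way, at 36.1, 36 and 39.4 CPM against 70.6, 56.7 and 61.4, with 60.6, 55.1 and 69.8 in WT (-0.76 ± 0.08, adjusted p = 6.3e-08). So the mRNA of the regulator that acts when iron is scarce was higher in msi2-G252E, and that of the one that acts when iron is plentiful was lower. php2 was called higher at 0.17 (adjusted p = 0.03), a call that was lost without msi2-G252E replicate 2 or 3 (0.18 each) or pfs2-V180F replicate 1 or 2 (0.16 each). php3 (0.03), php5 (0.07), the monothiol glutaredoxin gene grx4 (-0.08) and fra2 (0.14) were not called. With total-count scaling 5 of the 7 were called higher, php3 (0.15), php5 (0.20) and fra2 (0.27) joining php4 and php2, and fep1 was still called lower (-0.63).

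Genes whose products contain or handle iron were lower in msi2-G252E. Of 17 such genes, 14 were called lower (82.4%, against 27.6% of all genes) and none higher, with a median of -0.75. They made up 0.653 ± 0.0038% of counts in msi2-G252E, 0.976 ± 0.0091% in pfs2-V180F and 0.964 ± 0.0059% in WT. With total-count scaling the same number, 14, was called lower and 2 were called higher, at a median of -0.62. The glutamate synthase gene glt1, whose product carries iron-sulfur clusters, had the largest difference, at 167, 179 and 181 CPM against 519.5, 390.4 and 442, with 459.5, 488 and 522 in WT (-1.36 ± 0.10, adjusted p = 1e-10). The vacuolar iron transporter gene pcl1 was at 153, 154 and 154 CPM against 307, 310.1 and 305 (-1.0 ± 0.03, adjusted p = 3.6e-17), and WT was at 311, 308 and 311. For both genes pfs2-V180F was not called against WT (-0.12 and -0.01) and the msi2-G252E libraries stood alone below.

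The lower members spread over several iron-dependent pathways. In the tricarboxylic acid cycle and respiratory chain these were the aconitase gene aco1 (-0.75 ± 0.04), the succinate dehydrogenase genes sdh1 (-0.58), sdh2 (-0.86) and sdh3 (-0.53), tim18, listed under its synonym sdh4 (-0.75), the Rieske iron-sulfur protein gene rip1 (-0.73) and the cytochrome c gene cyc1 (-0.89 ± 0.09). In amino acid synthesis they were the iron-sulfur dehydratase genes ilv3 (-0.84 ± 0.04) and leu2 (-0.81 ± 0.04) of the branched-chain pathway and the homoaconitase gene lys2 (-0.41). The biotin synthase gene bio2 was at 285, 307 and 291 CPM against 485, 523.7 and 497 (-0.77 ± 0.05). The iron-sulfur assembly gene isa1 differed by -0.63, whereas the scaffold gene isu1 (-0.14, adjusted p = 0.21) and the genes etp1 (0.06) and dre2 (0.06) were not called. Against WT, 15 of the 17 were called lower in msi2-G252E (29.5% of all genes) and 2 in pfs2-V180F (24% of all genes).

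**Figure D3:**
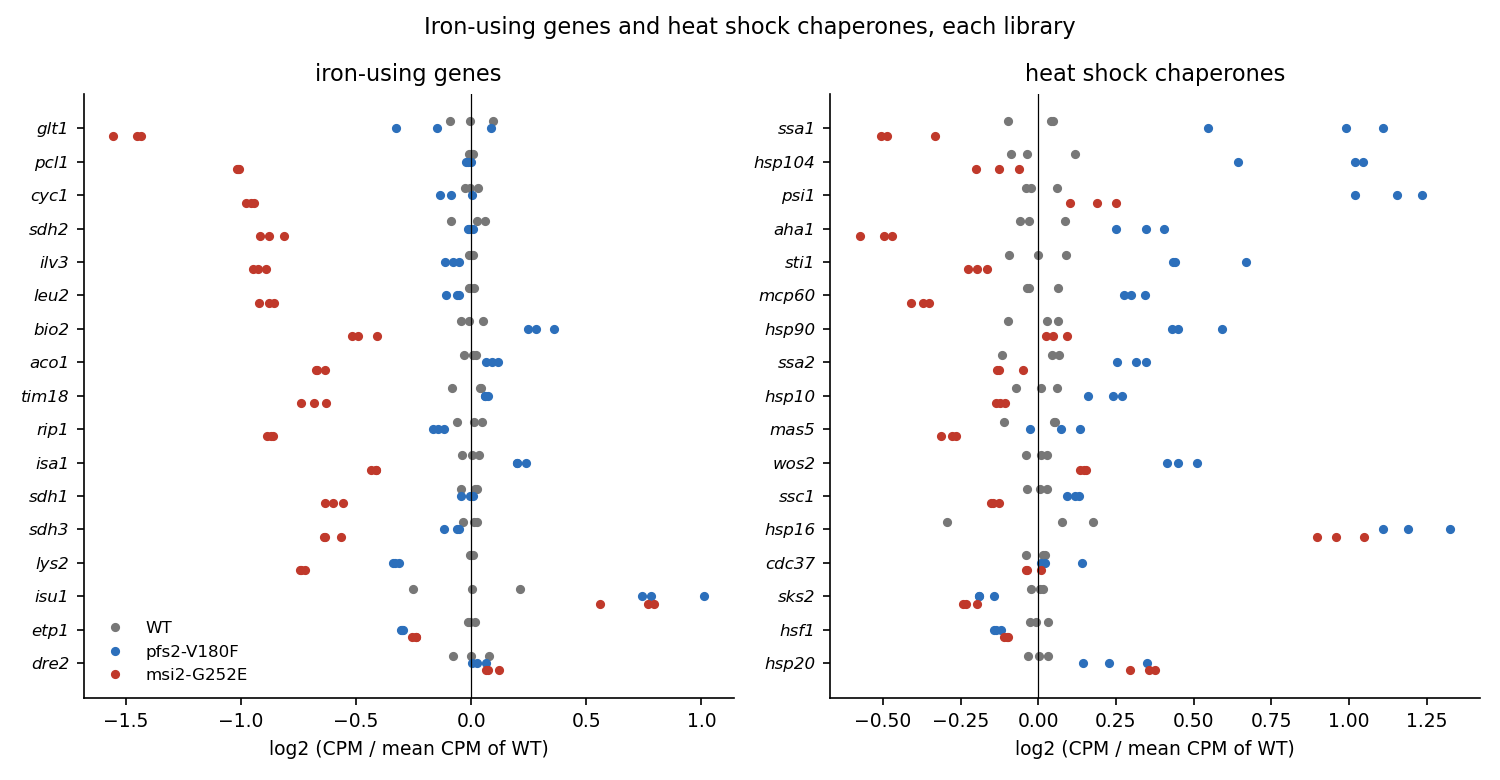
Log2 of CPM over the mean CPM of WT for each library, for 17 iron-using genes (left) and 17 heat shock chaperones (right); points are libraries. In the left panel the msi2-G252E libraries of the 14 called genes lie left of those of pfs2-V180F, most of which sit near 0, and in the right panel the pfs2-V180F libraries lie right of msi2-G252E in the 13 called genes.

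Respiratory chain genes, some of them also in the iron-using list, were mostly lower in msi2-G252E with TMM. Of 52 nuclear-encoded members, 34 were called lower (65.4%, against 27.6% of all genes) and 3 higher (5.77%, against 27.5%), at a median of -0.31. With total-count scaling 20 were lower (38.5%, against 14% of all genes) and 6 higher (11.5%, against 45.5%), at a median of -0.18. Besides cyc1, sdh2 and rip1, which are also in the iron-using list, the largest were the NADH dehydrogenase gene nde1 (-0.61) and qcr8 (-0.60), of the ubiquinol-cytochrome c reductase. Of 18 oxygen, heme and sterol genes, 7 were lower and 3 higher (median -0.07), but with total-count scaling 4 were lower and 6 higher (median 0.06), so no direction is given. erg5, for a sterol desaturase of the cytochrome P450 family, was at 532, 538 and 541 CPM against 901, 896 and 894 (-0.74 ± 0.04), and the heme synthesis gene hem14 was higher (0.47 ± 0.04). The plasma membrane biotin transporter gene vht1, among the largest falls from pfs2-V180F to msi2-G252E, was at 232, 229 and 208 CPM against 566, 700.5 and 522 (-1.42 ± 0.11). Here both strains stood apart from WT, msi2-G252E below (-1.01) and pfs2-V180F above (0.41).

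Most heat shock chaperone genes were lower in msi2-G252E than in pfs2-V180F. Of 17, 13 were called lower (76.5%, against 27.6% of all genes) and none higher (median -0.35; 12 lower and 2 higher with total-count scaling, and 1 called higher without pfs2-V180F replicate 2). Against WT, 12 of the 17 were called higher in pfs2-V180F (24.1% of all genes were) and 9 lower in msi2-G252E (29.5% of all genes). The Hsp70 gene ssa1 was at 86, 77.3 and 76.3 CPM in msi2-G252E, 234, 215 and 158 in pfs2-V180F, against 101, 112 and 112 in WT (-1.34 ± 0.11 between the mutants, adjusted p = 1.7e-09). The disaggregase gene hsp104 was at 97, 92.8 and 88.3 CPM against 209, 206 and 158, with 95.3, 109.9 and 98.8 in WT (-1.04 ± 0.11, adjusted p = 3.3e-08). For both, pfs2-V180F replicate 3 was the lowest library of its group and was still above all msi2-G252E and WT libraries. The Hsp40 gene psi1 (-0.96 ± 0.09) and the Hsp90 co-chaperone genes aha1 (-0.85 ± 0.04) and sti1 (-0.71 ± 0.06) followed, and the small heat shock protein gene hsp20 (0.10) and the regulator gene hsf1 (0.03) were not called.

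Of 16 core environmental stress genes, 6 were lower and 5 higher (37.5% and 31.2%, median -0.12), or 5 and 7 with total-count scaling (median 0.01), so the list had no common direction. rtc3 was at 38.5, 34.5 and 30.7 CPM against 98.1, 106 and 69.6, with 32.9, 33.3 and 26.8 in WT (-1.40 ± 0.16, adjusted p = 2.4e-07), and msi2-G252E was not called against WT (0.16, adjusted p = 0.45). The stress transcription factor gene atf1 was also lower (-0.87 ± 0.06), as was the trehalose synthesis gene tps1 (-0.64 ± 0.06). In the opposite direction, the calcium-transporting ATPase gene cta3 was at 7.73, 7.26 and 6.3 CPM against 2.64, 2.61 and 2.17 (1.52 ± 0.13), and the gluconeogenesis gene fbp1 differed by 0.90 ± 0.16.

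The oxidative stress and redox genes split. Of 21, 11 were called lower and 5 higher (median -0.18; 5 and 8 with total-count scaling). The catalase gene ctt1, for a heme enzyme, was at 62.2, 56.2 and 58.7 CPM in msi2-G252E, 173, 179.5 and 131 in pfs2-V180F, against 120.3, 97.1 and 109.8 in WT (-1.45 ± 0.10, adjusted p = 6.7e-11). The WT libraries lay between the mutants, below all of pfs2-V180F and above all of msi2-G252E. The glutathione S-transferase gene gst2 went the other way, at 622, 604 and 627 CPM against 229, 251.7 and 238, with 130.5, 134 and 143 in WT (1.37 ± 0.08, adjusted p = 4.5e-12). The sulfiredoxin gene srx1 (1.02 ± 0.15) and the quinone reductase gene obr1 (1.01 ± 0.10) were also higher in msi2-G252E, and the thioredoxin gene trx1 was lower (-0.55 ± 0.05).

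The phosphate acquisition genes pho1 and pho84 differed far less between the mutants than either mutant did from WT. The acid phosphatase mRNA pho1 was at 125, 134 and 124 CPM in msi2-G252E and 143, 141 and 138 in pfs2-V180F, against 1178, 1291 and 1156 in WT. The mutants did not overlap, but the difference of -0.14 ± 0.08 was not called (adjusted p = 0.15); its 95% interval ran from -0.31 to 0.03. The phosphate transporter mRNA pho84 was higher in msi2-G252E, at 332, 342 and 346 CPM against 227, 218 and 256, with 1539.9, 1496 and 1433 in WT (0.54 ± 0.08, adjusted p = 7.4e-06). The glycerophosphodiester transporter mRNA tgp1 was lower, at 15.6, 16.3 and 14.7 CPM against 19.6, 19.1 and 19.2, with 25.1, 22.2 and 24.2 in WT (-0.31 ± 0.07, adjusted p = 0.00085). All 3 mRNAs were called below WT in both mutants. With the 6 libraries fitted alone pho1 was called lower as well (-0.13).

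The lncRNA genes upstream showed the following. nc-pho1, upstream of pho1, was at 14.4, 15.4 and 14.9 CPM in msi2-G252E, 9.89, 7.76 and 8.28 in pfs2-V180F, against 3.92, 4.93 and 4.61 in WT (0.80 ± 0.09, adjusted p = 8.3e-08). prt2, upstream of pho84, was at 68.1, 69.1 and 63.7 CPM against 52.9, 54.9 and 57.4, with 27.9, 26.9 and 24.9 in WT (0.28 ± 0.05, adjusted p = 2.1e-05). In both cases the order was WT, pfs2-V180F, msi2-G252E without overlap, so pho84 and its upstream lncRNA were both higher in msi2-G252E than in pfs2-V180F. nc-tgp1, upstream of tgp1, was at 23.9, 22.2 and 21.1 CPM against 20.4, 20.6 and 19.9, with 27.2, 26.9 and 25 in WT. Between the mutants it was not called (0.14 ± 0.08, adjusted p = 0.12), and with total-count scaling it was called at 0.27. Against WT nc-tgp1 was called lower in msi2-G252E (-0.23) and in pfs2-V180F (-0.37), as was the tgp1 mRNA. A gene count adds up all reads over a gene, and does not show where a lncRNA ends or whether its reads continue into the mRNA.

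**Figure D4:**
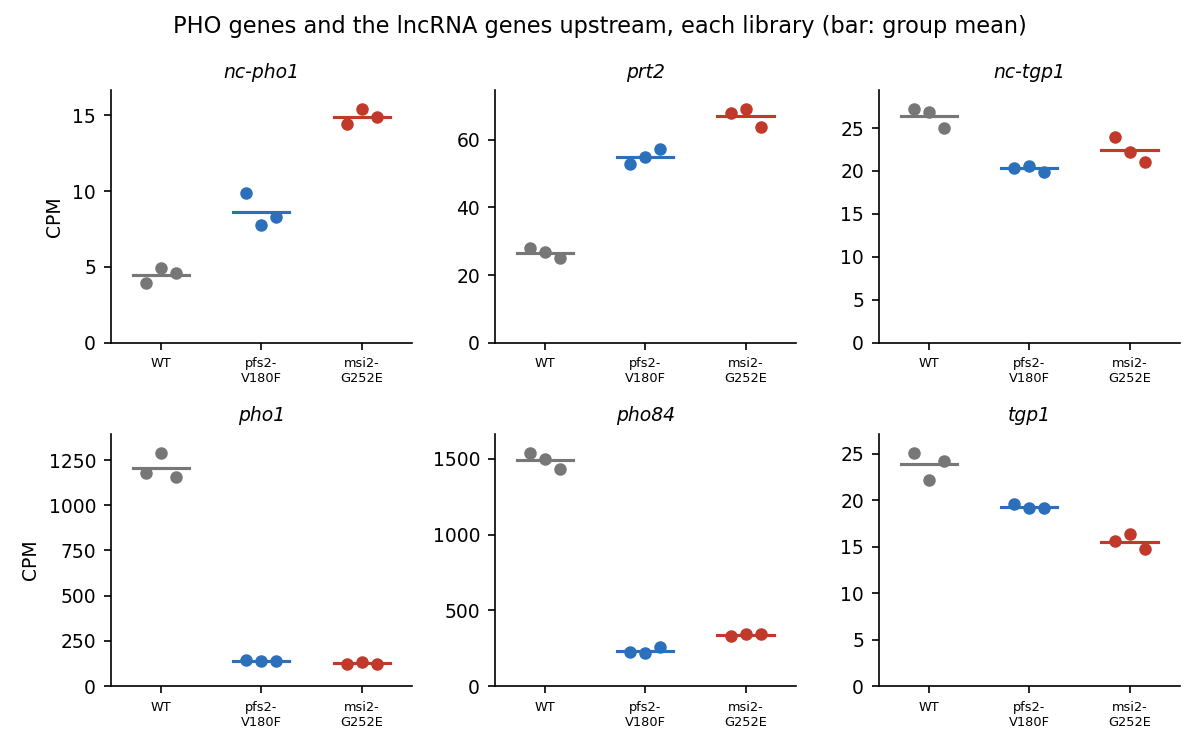
CPM (linear axes from 0, each panel on its own range) of pho1, pho84 and tgp1 and of the lncRNA genes upstream of them in each library; points are libraries and bars are group means. In pho1 both mutants lie near the bottom of the WT scale, at 124 to 143 CPM, and in nc-pho1 msi2-G252E lies above pfs2-V180F at 14.4 to 15.4 against 7.76 to 9.89.

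Of 13 other phosphate and inositol pyrophosphate genes, 7 were higher and 2 lower (median 0.17; 8 and 1 with total-count scaling). Besides asp1, the higher members included pho7, for the transcription factor of the phosphate response (0.32 ± 0.06), the kinase gene csk1 (0.27 ± 0.05) and vtc2, of the vacuolar polyphosphate polymerase, at 271, 279 and 275 CPM against 231, 232 and 203, with 423, 379 and 441 in WT (0.31 ± 0.06). Another gene of that polymerase, vtc4, was not called (0.03, adjusted p = 0.77). The alkaline phosphatase gene pho8 was lower (-0.36 ± 0.04), and so was pqr1 (-0.11). The count of lower members fell to 1 in 5 of the 6 fits that left out a library, all but the one without pfs2-V180F replicate 3.

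Genes of the cleavage, polyadenylation and termination machinery itself differed by -0.49 to 0.25. Of 23, 4 were higher and 4 lower (median 0.05), or 34.8% called against 55.1% of all genes, but with total-count scaling 17 were higher and 1 lower, and without msi2-G252E replicate 1 the count of higher members was 2. The largest difference was in mpe1, for an E3-ligase-like subunit, at 166, 156 and 158 CPM against 237, 216 and 222, with 102, 97.3 and 103 in WT (-0.49 ± 0.04, adjusted p = 2.4e-09). Both mutants lay above WT there, pfs2-V180F more so. The termination factor gene rhn1 was higher (0.25 ± 0.05), as was cft2 (0.18 ± 0.04), and yth1 was lower (-0.24; -0.11 and not called with total-count scaling). Of 15 nuclear RNA surveillance genes, 5 were higher and 2 lower (median 0.07; 10 and 1 with total-count scaling), among them red1 (0.33 ± 0.04), of the complex that targets meiotic mRNAs for decay, and the exosome nuclease gene dis3 (-0.26 ± 0.04).

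Meiotic mRNAs that the RNA-binding protein Mmi1 removes from growing cells were in part higher in msi2-G252E. Of 13, 7 were called higher (53.8%, against 27.5% of all genes) and 2 lower (15.4%, against 27.6%), at a median of 0.36 (7 and 1 with total-count scaling, where 45.5% of all genes were called higher; the count of lower members was also 1 without msi2-G252E replicate 1, msi2-G252E replicate 3 or pfs2-V180F replicate 2). rec10, of the meiotic recombination machinery, was at 26.6, 26.3 and 22.7 CPM against 14.8, 14 and 14.9, with 14.8, 13.3 and 13.3 in WT (0.79 ± 0.08, adjusted p = 3.4e-08). jnm1, listed under a synonym and encoding a dynactin subunit by its annotation, differed by 0.99 ± 0.18, the dynactin gene ssm4 by 0.72 ± 0.13, mug10 by 0.71 ± 0.18 and the cyclin gene crs1 by 0.56 ± 0.16. In each of these 5 genes pfs2-V180F was not called against WT.

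Sexual differentiation genes had no common direction. Of 13 such genes, 4 were lower and 3 higher (median -0.14; 3 and 4 with total-count scaling). ste11, the master transcription factor of mating and meiosis, was at 9.7, 12.8 and 12.5 CPM in msi2-G252E, 32.9, 18.4 and 20.7 in pfs2-V180F, against 33.2, 41.2 and 32.9 in WT (-1.03 ± 0.20, adjusted p = 0.00019). mei2, for the RNA-binding protein that starts meiosis, was at 18, 17.4 and 18.5 CPM against 48.6, 24.7 and 30.3, with 68.1, 62.5 and 67.2 in WT (-0.92 ± 0.15, adjusted p = 2.4e-05). In both genes pfs2-V180F replicate 1 was well above the other libraries of its strain, and without it the mei2 difference was -0.61, still called. rep1 was higher in msi2-G252E (0.78 ± 0.14). Of 15 nitrogen starvation genes, 5 were lower and 1 higher (median -0.17; 4 and 4 with total-count scaling, and 2 higher without pfs2-V180F replicate 3). The ammonium transporter gene amt1 was at 31.2, 31.9 and 31.2 CPM against 66.2, 51.9 and 72, with 39.5, 32.9 and 41.6 in WT (-1.01 ± 0.13), and isp7 at 67.3, 67.3 and 61.8 against 124, 91.7 and 131 (-0.82 ± 0.15).

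Carbon metabolism showed single genes rather than a list. Of 33 carbon source and glycolysis genes, 10 were higher and 6 lower (median 0.09; 16 and 4 with total-count scaling). The aldehyde dehydrogenase gene atd1 was at 539, 494 and 440.1 CPM against 1033, 874 and 926, with 383, 319 and 387 in WT (-0.94 ± 0.13, adjusted p = 1.6e-06), and the dihydroxyacetone kinase gene dak2 at 32.9, 30.8 and 33.2 against 64.5, 63.5 and 58.1 (-0.94 ± 0.09). These differ in their relation to WT, since pfs2-V180F was above WT for atd1 (1.38) and not called against WT for dak2 (-0.09, adjusted p = 0.37). The glyceraldehyde phosphate dehydrogenase genes tdh1 (0.61 ± 0.07) and gpd3 (0.72 ± 0.10) were higher in msi2-G252E. The hexose transporter gene ght7, near the detection limit at 0.335, 0.278 and 0.191 CPM against 0.864, 0.975 and 0.513, differed by -1.54 ± 0.39 (adjusted p = 0.0023).

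Of 11 copper and zinc genes, 2 were higher and 2 lower (median -0.08; 4 and 1 with total-count scaling). The metallothionein gene zym1 was at 31.5, 29.5 and 30.6 CPM against 17.4, 19.8 and 14.5 (0.82 ± 0.11), and the alcohol dehydrogenase gene adh4 at 124, 126 and 123 against 204, 195 and 204 (-0.69 ± 0.05). The superoxide dismutase gene sod1 was called at -0.22, which failed in 5 of the 6 leave-one-out fits (-0.15 without pfs2-V180F replicate 1) and with total-count scaling (-0.09). The copper transporter genes ctr4 (-0.75 ± 0.39, adjusted p = 0.11) and ctr5 (-0.41 ± 0.23, adjusted p = 0.13) were not called. Of 7 thiamine-regulated genes, bsu1 alone was called, as higher (0.48 ± 0.05), also with total-count scaling. Of 8 flocculin-type cell surface genes tested, 5 were higher and 3 lower (5 and 2 with total-count scaling). pfl3 was at 103, 99.3 and 93.4 CPM against 33.7, 42.6 and 41.6 (1.32 ± 0.08), while pfl9 was at 2.31, 3.21 and 2.75 against 6.91, 8.56 and 8.95 (-1.57 ± 0.23).

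Among the largest falls from pfs2-V180F to msi2-G252E were several single genes of low to moderate level. cwg2, for the beta subunit of a protein prenyltransferase, was at 6.84, 6.82 and 6.56 CPM against 17, 19.1 and 20, with 19.1, 17.9 and 19.2 in WT (-1.48 ± 0.09, adjusted p = 3.1e-12). gep4 was at 2.6, 2.34 and 1.95 CPM against 7.49, 8.77 and 7.53 (-1.79 ± 0.13), mmf2 at 1.93, 2.46 and 1.98 against 7.25, 6.68 and 7.73 (-1.76 ± 0.16) and the alanine racemase gene alr2 at 1.6, 1.19 and 1.14 against 4.18, 3.79 and 3.23 (-1.50 ± 0.20). In cwg2 and alr2 the pfs2-V180F level was not called against WT, and in these 4 genes all msi2-G252E libraries lay below all of pfs2-V180F. aes1 was at 67.4, 79.8 and 63.9 CPM against 193, 225 and 257, with 122, 159 and 115 in WT between them (-1.68 ± 0.13, adjusted p = 2.8e-10). Among the largest rises with a symbol was fub2, annotated as a proteasome regulator of the PI31 family, whose systematic name follows that of pho1. It was at 4.13, 4.64 and 4.01 CPM against 0.48, 0.557 and 0.67, with 0.916, 1.03 and 0.75 in WT (2.88 ± 0.21, adjusted p = 1.6e-10).

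Among genes whose systematic names begin with SPAC186, SPAC750 or SPAC977, a grouping made after their values were seen, some differed by a large factor. Of 22 tested, 8 were called higher in msi2-G252E, 7 of them at least 2-fold, 6 were called lower and 8 were not called. Of all genes, 27.5% were called higher and 27.6% lower. The name groups differed, with 5 higher and 1 lower of 7 SPAC186 genes, and 2 higher and 5 lower of 12 SPAC977 genes. This grouping is not one of the gene lists, and its counts are with TMM. pdc102, for a pyruvate decarboxylase, had 105 reads over the msi2-G252E libraries and 1 over those of pfs2-V180F, which makes a ratio of 100.5 (17.6 to 4010, a 95% interval for counting). In WT pdc102 was at 0.333, 1.87 and 1.2 CPM. Against WT it was not called in msi2-G252E (0.23, adjusted p = 0.6) and was lower in pfs2-V180F (-5.97, adjusted p = 8.6e-06). gdt1 was at 66.6, 67.6 and 65.5 CPM in msi2-G252E, 3.94, 7.1 and 9.58 in pfs2-V180F, against 29, 67.8 and 70.7 in WT (3.25 ± 0.64, adjusted p = 0.00018). SPAC750.01, for an aldo/keto reductase family protein, was at 52.2, 47.1 and 55.8 CPM against 2.06, 1.22 and 1.18, with 6.54, 40.4 and 31.1 in WT (5.16 ± 0.59, adjusted p = 1.8e-07). The WT libraries were uneven in these genes, replicate 1 lowest in gdt1, pdc102 and SPAC750.01. The other higher members named here were SPAC977.18 (4.40 ± 0.62) and, chosen after their values were seen, SPAC186.04c (2.43), SPAC186.06 (2.92) and SPAC186.08c (2.89), all called. In that order, their group means were 2.91, 1.46, 4.36 and 0.623 CPM in msi2-G252E and 0.141, 0.252, 0.55 and 0.0758 in pfs2-V180F. In WT these means were 1.95, 1.93, 4.92 and 1.46 CPM, so pfs2-V180F lay below WT in each. ftm4 (SPAC750.05c), chosen in the same way, had 18 reads against 1 and was not called (3.68 ± 3.46, adjusted p = 0.38); DESeq2 called it at 3.98. In the opposite direction, pfl9 (SPAC186.01, -1.57 ± 0.23) and dak2 (SPAC977.16c, -0.94 ± 0.09) were lower in msi2-G252E, and in pfs2-V180F neither was called against WT (adjusted p = 0.26 and 0.37). The RecQ-type helicase genes tlh1 and tlh2 were higher in msi2-G252E, tlh2 at 10.3, 8.33 and 15.6 CPM against 0, 2.54 and 1.03, with 0.583, 0.119 and 0.787 in WT (3.14 ± 0.44, adjusted p = 2.9e-06), and tlh1 at 3.25 ± 0.56, or 6.10 without pfs2-V180F replicate 2. These are near-identical copies, and their reads can be split between them.

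The Tf2 retrotransposons are also near-identical copies. Of 13 copies 5 passed the filter on low counts, and these 5 were all called lower, also with total-count scaling. Tf2-11 was at 6.73, 7.02 and 7.02 CPM against 12.5, 19.4 and 16.3, with 4.75, 7.4 and 4.87 in WT (-1.23 ± 0.16, adjusted p = 8.2e-07), so it was pfs2-V180F that lay above WT. Tf2-10 (-0.81 ± 0.20) and Tf2-2 (-0.63 ± 0.15) showed the same order, and Tf2-6 differed by -2.31 ± 0.66. Tf2-7 rests on 49 reads against 1, most of them in pfs2-V180F replicate 2, and its call was lost without that library (-2.36) or without any one msi2-G252E library (-4.72 to -7.03). The copies that passed the filter could do so through the strain in which they are high, so their count is not support for a direction.

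Among genes at least 2-fold apart, lncRNA genes were 79 of the 158 higher and 37 of the 85 lower. They were 1190 of the 6287 genes tested. Most of those named here were under 1 CPM in at least 1 mutant, so their differences rest on few reads. Of 1190 lncRNA genes tested, 336 were higher in msi2-G252E (28.2%) and 207 lower (17.4%), with a median of 0.10, against 27.5% and 27.6% of all genes. With total-count scaling 444 were higher (37.3%) and 131 lower (11%), at a median of 0.22, against 45.5% and 14% of all genes. Counts assigned to lncRNA genes were 1.42% of the total in msi2-G252E, 1.29% for pfs2-V180F and 1.05% in WT. SPNCRNA.1163 was at 1.04, 0.872 and 0.534 CPM against 0.096, 0.0348 and 0.158 (3.06 ± 0.52), SPNCRNA.413 had 42 reads against 2 (ratio 20.1, interval 5.23 to 171) and prl61 differed by 4.21 ± 0.78. Lower were SPNCRNA.618, at 0.26, 0.555 and 0.114 CPM against 1.68, 2.44 and 2.29 (-2.80 ± 0.32), SPNCRNA.1653 (-2.18 ± 0.15) and SPNCRNA.1156 (-1.95 ± 0.29). SPNCRNA.1653 was highest in pfs2-V180F, at 7.78, 8.25 and 9.42 CPM against 1.78, 1.98 and 1.87 in msi2-G252E and 1.83, 1.87 and 2.62 in WT. It and SPNCRNA.1156 are annotated as possible alternative untranslated regions, so their reads may belong to an mRNA.

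Of 48 snoRNA and snRNA genes tested, 21 were higher (43.8%, against 27.5% of all genes) and 6 lower (12.5%, against 27.6%), at a median of 0.35. With total-count scaling 23 were higher and 5 lower (47.9% and 10.4%), near the 45.5% and 14% of all genes. snoR54 was at 1.82, 2.42 and 1.79 CPM against 0.624, 0.278 and 0.315 (2.35 ± 0.31), snR191 at 3.53, 3.93 and 4.01 against 0.72, 1.04 and 1.34 (1.86 ± 0.21) and snR48 at 2.31, 3.97 and 2.82 against 0.96, 0.696 and 0.828 (1.88 ± 0.29). sno52 was the clearest in the other direction, at 7.33, 8.72 and 8.97 CPM against 28.5, 30 and 30, with 20.4, 18.3 and 12.7 in WT (-1.82 ± 0.15, adjusted p = 1.1e-09). These libraries were made from polyA+ RNA, in which the level of such an RNA and its polyadenylation cannot be told apart.

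Protein-coding genes were also counted by the lncRNA genes beside them. Of 323 protein-coding genes whose next gene upstream is an lncRNA gene on the same strand, 90 were higher and 93 lower (27.9% and 28.8%, median 0.00), or 150 and 50 with total-count scaling (46.4% and 15.5%). Of 957 overlapped by an lncRNA gene on the other strand, 274 were higher and 247 lower (28.6% and 25.8%, median 0.02), or 465 and 135 with total-count scaling (48.6% and 14.1%). Under each scaling these shares are close to those of all genes. In 5 overlapping pairs on opposite strands both genes were at least 2-fold apart in opposite directions. SPAC5H10.04, for an NADPH dehydrogenase, was at 186.2, 185 and 179.8 CPM against 32.2, 30.9 and 35.8, with 10.7, 9.39 and 10.5 in WT (2.48 ± 0.05, adjusted p = 3.8e-20), while SPAC5H10.05c on the other strand was at 20, 18.2 and 18.3 against 54.3, 53.2 and 53.4 (-1.51 ± 0.06). Of the genes around them, SPAC5H10.03 (-0.89), adh4 (-0.69) and SPAC5H10.07 (-1.65) were lower, the first and last chosen after their values were seen. The other pairs were meu17 (-1.49) with SPNCRNA.1494 (1.60), pcl1 (-1.0) with SPNCRNA.100 (1.71), and abc3 (1.01) with SPNCRNA.1312 (-1.15) and with SPNCRNA.1313 (-1.11). The library kit keeps the strand, but whether the counting used it is not given in the sources used here, and reads of such partners may not be separated.

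Large gene families of growth differed by small amounts, and in part the direction depends on the scaling. Among all genes, 27.6% were called lower and 27.5% higher with TMM, and 14% and 45.5% with total counts. Of 139 cytosolic ribosomal protein genes, many of them near-identical paralogs, 124 were called lower in msi2-G252E (89.2%) and 1 higher (median -0.27). With total-count scaling these were 81 (58.3%) and 2 (median -0.15). Without 1 library the lower count was 93 to 124, and 2 were higher without pfs2-V180F replicate 1. rpl1602 had the largest difference, at 656, 666 and 592 CPM against 1091, 909 and 954, with 1311, 1364 and 1498 in WT (-0.63 ± 0.09). Of 10 histone genes 8 were lower and none higher (median -0.24), or 5 and none with total-count scaling, led by hta1 (-0.51 ± 0.03). Of 33 proteasome genes 21 were lower and 2 higher (median -0.11), but with total-count scaling 3 were lower and 7 higher, so no direction is given. Of 22 ribosome biogenesis factors 5 were higher, 1 lower and 16 not called (median 0.05), or 14 higher and none lower with total-count scaling. The count of higher factors was 3 without msi2-G252E replicate 1, msi2-G252E replicate 3 or pfs2-V180F replicate 3, and the lower one was lost without msi2-G252E replicate 1 or 2 or pfs2-V180F replicate 2. rpf1 differed by 0.34 ± 0.10 and rlp7 by 0.27 ± 0.06.

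**Figure D5:**
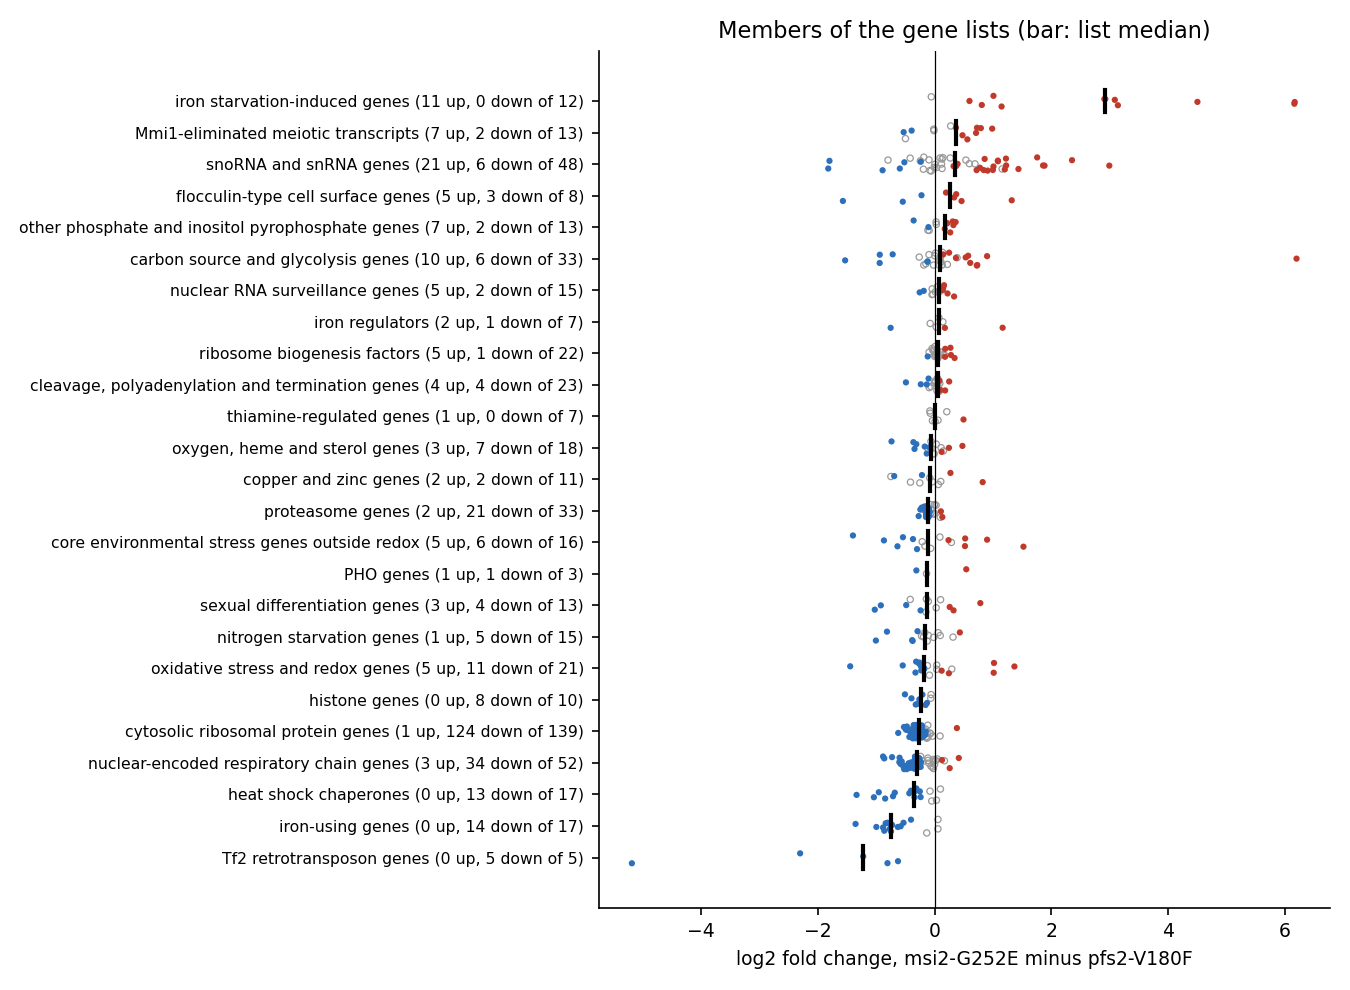
Log2 fold change between the mutants for the members of 25 gene lists, ordered by list median (black bars); filled points are called genes, open points are not called. The iron starvation-induced genes stand apart at the top with a median of 2.91, and the iron-using genes and heat shock chaperones lie near the bottom with medians of -0.75 and -0.35.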

How the data were processed

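PolyA+ RNA-seq counts of msi2-G252E and pfs2-V180F (3 libraries each) were compared. Raw counts of reads for each gene in 24 libraries were deposited. Per the submitters' processing notes, the tools were HISAT2 2.1.0 and HTSeq 0.10.0, with SAMtools and DESeq2 also listed, and the build ASM294v2. Libraries were directional and paired-end, per the labels' protocols. The annotation release and whether counting used strand are not given in the sources used here, and an unstranded setting would merge a gene with its antisense partner. The deposited tables of each mutant against WT were not used, since none compares these strains.

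From the counts, R 4.3.3 with edgeR 4.0.16 (filterByExpr, TMM, quasi-likelihood fit of 1 mean per group over 24 libraries in 8 groups, 16 residual degrees of freedom) tested 6287 genes. The filter left out 701 genes for low counts. CPM are counts relative to the TMM-scaled library size. Adjustment was by Benjamini-Hochberg over the genes tested, and the common biological coefficient of variation was 4.9%. Between replicates, the chi-square per degree of freedom was 3.35 to 11.0, so each library was counted separately. Counting intervals cover counting error only.

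Names come from RefSeq ASM294v3, which matched 6836 of 6988 identifiers. Being another build, it gave names, neighbours and overlaps only, and no coordinates are given. There were 30 gene lists. The text names the mutated genes, asp1, its antisense RNA, the PHO genes and their upstream lncRNAs; the iron starvation-induced genes and called iron regulators and iron-using genes; the 12 largest differences per direction of protein-coding genes with a symbol and the 5 largest of other genes, among called genes at least 2-fold apart whose libraries do not overlap; up to 5 called members of each other list; genes called and at least 2-fold from WT in opposite directions; and overlapping pairs at least 2-fold apart in opposite directions. Some are left out for length, and other genes are marked in the text as picked with their values known, or stand beside their list's count. The comparison, members and lists were chosen with earlier results of these data known.

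Simulated counts gave all groups the same mean profile, with few genes changed, in msi2-G252E only and as many up as down. Of 6250 genes passing the filter there, 88.9% of 99 genes changed 1.5-fold and 99% of 100 changed 2-fold were called. Of unchanged genes 0.149% were called. The wide differences and unlike TMM factors of the real contrast were not simulated, so these rates do not cover the choice of scaling. Alternatives were DESeq2 1.42.0, RLE size factors, no filter, a replicate block, a fit of the 6 libraries alone, leaving out each of them, and total-count scaling, added after the data were seen.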

Additional observations from a re-analysis of the deposited data

Results flagged for a closer look

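SPNCRNA.498, annotated as a candidate snoRNA, and SPAC212.06c, for a DNA helicase-like protein, are given because the mutants moved in opposite directions from WT, each by at least 2-fold, and the test between the mutants passed. SPNCRNA.498 was at 1.19, 1.43 and 0.992 CPM in msi2-G252E, 0.096, 0.174 and 0.158 in pfs2-V180F, with WT at 0.333, 0.756 and 0.375. The difference between the mutants was 2.99 ± 0.35 on the log2 scale (edgeR quasi-likelihood test, adjusted p = 2.3e-07), with 1.29 ± 0.27 from WT in msi2-G252E and -1.70 ± 0.42 in pfs2-V180F. SPAC212.06c was at 2.12, 1.82 and 2.14 CPM in msi2-G252E, 0.336, 0.278 and 0.355 in pfs2-V180F, with WT at 0.833, 0.477 and 0.862. It differed by 2.64 ± 0.35 between the mutants (adjusted p = 1.2e-06), by 1.48 ± 0.29 from WT in msi2-G252E and by -1.17 ± 0.42 in pfs2-V180F. In both genes all WT libraries lay between the mutants. Of 260 genes called against WT in opposite directions in the mutants, these 2 were at least 2-fold from WT in each.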

How the results depend on the processing

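The number of called genes was 3464, against 3486 with the 6 libraries fitted alone, 3459 with RLE size factors, 3435 with no filter on low counts, 3410 with DESeq2, 3740 with total-count scaling and 3022 to 3197 without 1 library. Genes at least 2-fold higher in msi2-G252E numbered 158 (155 to 202 over these fits) and lower 85 (65 to 85). The count of iron starvation-induced genes called higher was 11 in all of them. The replicate numbers shared by the groups did not pair the samples. The deviations of same-numbered libraries correlated at -0.042, -0.078 and -0.017, and with a replicate block 3522 genes were called. The pho1 difference was called with the 6 libraries fitted alone (-0.13, adjusted p = 0.011). In that fit the spread comes from the compared mutants only, and in the main fit from all 8 groups. The pho1 difference was -0.01 with total-count scaling and -0.17 to -0.11 without 1 library, not called there. Over 178 genes tested individually and 12 alternatives, 2132 values were obtained, of which 2088 kept their direction and side of the threshold, 37 lost a call, 7 gained one and none reversed. A call was lost for 15 genes under some alternative and for 10 when 1 library was left out. Of 708 list counts under the alternatives, 646 were within 1.5 times the count given and 62 were not, 32 of them with total-count scaling. Genes under about 1 CPM rest on few reads, and their differences on the scatter of those.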
